A study of Homo sapiens with 4 samples.

Results

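Nuclear genes for the subunits of the respiratory chain and of ATP synthase were compared between 2 control libraries and 2 libraries labelled PPDPF knockdown of the human cell line HT8. The labels give the tissue as colon cancer and the knockdown source as HT8-cas1, which they do not explain, and they name no other allele or treatment. Whether the libraries of a group were grown apart is not stated, and p-values therefore reflect only how these libraries vary, which may be technical. The members were the protein-coding genes whose symbols begin with the usual prefixes of complex I (NDUFA, NDUFB, NDUFC, NDUFS and NDUFV), complex III (UQCR), complex IV (COX4I, COX5, COX6, COX7 and COX8A) and ATP synthase (ATP5), plus CYC1, SDHA, SDHB, SDHC and SDHD. Assembly factors were left out. Of 91 genes matched by name, 80 had a mean of at least 1 FPKM (reads scaled to exon length and library size) over the 4 libraries and were kept, among 12777 tested genes and 58735 genes in all.

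Oxidative phosphorylation makes most of the ATP of a resting animal cell. Complex I takes electrons from NADH and complex II takes them from succinate, both hand them to coenzyme Q, complex III passes them to cytochrome c, and complex IV gives them to oxygen. Complexes I, III and IV pump protons across the inner mitochondrial membrane, and ATP synthase, also called complex V, lets the protons back to drive ATP formation. Most subunits are encoded in the nucleus and imported, whereas a small core of complexes I, III, IV and V is encoded by the mitochondrial genome. Nuclear respiratory factor 1 (NRF1), ETS family factors such as GABP and the factor YY1 are known to act at promoters of many of the nuclear genes.

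PPDPF, the gene named on the label, stood at 237 and 266 FPKM in the controls and at 281 and 283 FPKM in the libraries labelled knockdown, no decrease (log2 fold change 0.16, limma adjusted p = 0.0940). It was called higher among genes with a mean of at least 5 FPKM (limma adjusted p = 0.0459) and with protein-coding genes only (0.031). With voom on reads recovered from the FPKM it was called higher too (0.0105). Directions below are therefore given for the libraries by their labels. Reads in genes ranged from 17069628 to 19479906 per library. The markers EPCAM, CDH1, KRT8, KRT18 and KRT19 of epithelium and VIL1, CDX1, CDX2, KRT20 and LGALS4 of colon epithelium were all present, and several moved with the groups. KRT20 (log2 fold change 1.31), CDX1 (0.65), LGALS4 (0.62), KRT19 (0.38), KRT8 (0.22) and VIL1 (0.16) were called higher, CDH1 (-0.13) was called lower, and EPCAM, KRT18 and CDX2 were not called. The 5 colon markers summed to 122 and 134 FPKM in the controls and 157 and 154 FPKM in the libraries labelled knockdown. Of other cell types, the leukocyte markers PTPRC and CD3E and the fibroblast markers COL1A2 and DCN were at 0 reads. CD14, a monocyte marker, had 52, 69, 28 and 29 reads and was called lower (limma adjusted p = 0.0335), and the fibroblast markers COL1A1 (33, 34, 17 and 15 reads) and PDGFRB (50, 68, 33 and 48 reads) were under the filter. The part of these marker shifts in the members' differences was not tested. In RNA from a culture, a lower level per cell and fewer cells with the transcript cannot be told apart.

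Promoters of 4 members called with all 4 libraries, outside the shifted chromosomal regions described later, are shown first. The call of SDHB, 1 of these, depended on the processing, as given below. The promoter of SDHD is also shown, a subunit that did not pass the test and whose promoter held the letters of a pair of factors. Each is the RefSeq window on GRCh38.p14 from 250 bases before to 50 bases after the gene's start, read 5′ to 3′ along the gene's strand. Capitals mark a match to GCATGCGC (the NRF1 letters), CCGGAAGT (ETS letters) or AAGATGGC (YY1 letters) on either strand. The SDHD window, at chr11:112086623-112086922 on the plus strand, held 2 NRF1 matches, which overlap on opposite strands, and 1 ETS match. The SDHB window, at chr1:17053983-17054282 on the minus strand, held 1 NRF1 match and 1 YY1 match, and the ATP5PB window, at chr1:111449214-111449513 on the plus strand, held 1 YY1 match. The windows of NDUFB3, at chr2:201071751-201072050 on the plus strand, and NDUFB6, at chr9:32573110-32573409 on the minus strand, held none of the 3 sets of letters.
SDHD: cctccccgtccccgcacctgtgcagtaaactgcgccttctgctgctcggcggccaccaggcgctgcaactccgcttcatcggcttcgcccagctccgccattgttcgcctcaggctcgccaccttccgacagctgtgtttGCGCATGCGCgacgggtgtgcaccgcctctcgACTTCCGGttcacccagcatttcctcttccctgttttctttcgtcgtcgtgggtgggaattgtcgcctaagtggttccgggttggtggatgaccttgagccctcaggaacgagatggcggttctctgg
SDHB: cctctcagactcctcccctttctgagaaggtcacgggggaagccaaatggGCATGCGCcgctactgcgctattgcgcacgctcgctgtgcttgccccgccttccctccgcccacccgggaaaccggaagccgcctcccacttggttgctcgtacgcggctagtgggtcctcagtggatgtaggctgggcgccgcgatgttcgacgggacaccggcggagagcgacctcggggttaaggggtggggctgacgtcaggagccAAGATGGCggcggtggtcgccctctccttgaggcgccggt
ATP5PB: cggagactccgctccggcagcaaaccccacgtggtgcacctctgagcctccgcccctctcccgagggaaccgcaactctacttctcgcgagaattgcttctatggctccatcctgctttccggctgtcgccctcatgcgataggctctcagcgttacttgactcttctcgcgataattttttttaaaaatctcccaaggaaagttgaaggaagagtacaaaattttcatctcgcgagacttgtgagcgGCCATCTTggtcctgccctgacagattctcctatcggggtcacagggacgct
NDUFB3: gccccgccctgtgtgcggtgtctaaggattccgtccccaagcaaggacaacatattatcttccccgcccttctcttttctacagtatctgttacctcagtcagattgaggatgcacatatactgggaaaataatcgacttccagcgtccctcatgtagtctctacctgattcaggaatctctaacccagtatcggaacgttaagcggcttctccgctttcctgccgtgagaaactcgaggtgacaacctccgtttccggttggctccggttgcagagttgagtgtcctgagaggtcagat
NDUFB6: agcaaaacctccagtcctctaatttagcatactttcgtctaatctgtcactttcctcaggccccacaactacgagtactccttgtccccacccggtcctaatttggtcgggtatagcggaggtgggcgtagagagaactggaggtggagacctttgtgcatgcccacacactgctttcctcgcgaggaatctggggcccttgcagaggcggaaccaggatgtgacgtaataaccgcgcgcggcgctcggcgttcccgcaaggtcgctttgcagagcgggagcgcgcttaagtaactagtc

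A promoter window was matched by symbol for 64 of the 80 members. The NRF1 letters were in 13 of these 64 windows (20.3%), against 3.05% of all 35116 windows and 5.92% of the 9161 windows of tested genes. The ETS letters were in 10 member windows (15.6%), against 4.14% of all windows and 9.67% of those of tested genes. The YY1 letters were in 10 member windows (15.6%), against 2.89% and 5.82%. Of the 9 members with a window that were called higher, as described next, 2 held the NRF1 letters (NDUFS6 and SDHB), 2 the YY1 letters (ATP5PB and SDHB) and 0 the ETS letters. The NRF1, ETS and YY1 letters were in 11, 10 and 8 of the 54 windows of members that were not called. A match describes the letters only and does not show binding.

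The 80 members stayed close to their control levels on the whole. Their summed FPKM was 3628 and 3611 for the controls, and 3793 and 3869 for the libraries labelled knockdown, a ratio of 1.06. The median log2 fold change, labelled knockdown over control on log2(FPKM + 1), was 0.05 over the members and 0.001 over all tested genes. Of the 80 members, 45 differed by less than 0.1 on the log2 scale in either direction (56.2%), against 34.9% of all tested genes. Only 4 members (5%) exceeded 0.3 in either direction, CYC1, NDUFB3, NDUFB2 and ATP5F1E, against 23.9% of all tested genes. The members ranged from -0.22 to 0.58. These shares are not matched for level: the median was 28.8 FPKM over the members and 7.29 FPKM over all tested genes.

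With limma and Benjamini-Hochberg adjustment over all tested genes, 15 members were called higher at an adjusted p under 0.05, 1 was called lower (NDUFB6) and 64 passed in neither direction. Over all tested genes, 16.8% were called higher and 13% lower, 29.9% in all. The higher calls among the members, 18.8%, were near that background, while the lower calls were 1.25%. Members are well expressed, with a median of 28.8 FPKM against 7.29 FPKM for all tested genes, so the same counts are given for genes with a mean of at least 5 FPKM: there 25.4% of genes were called higher and 18.9% lower, and 17 members were called higher and 2 lower out of 70. Both libraries labelled knockdown lay above both controls for 40 members and below both for 15, against 35.9% and 33.8% of all tested genes. In each of 4 fits with 1 library left out, 1 group was a single library. Higher calls were then fewer both among the members and among all tested genes. The median log2 fold change in these fits was 0.037 to 0.067 over the members and 0.001 to 0.006 over all tested genes. Only CYC1, NDUFB3, NDUFB2 and ATP5F1E were called in all of these 4 fits. With all 4 libraries, lower calls among the members numbered 7 after quantile normalization and 4 with voom on the recovered reads. Over all tested genes, 14.7% were called lower after quantile normalization and 21.2% with voom.

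**Figure D1:**
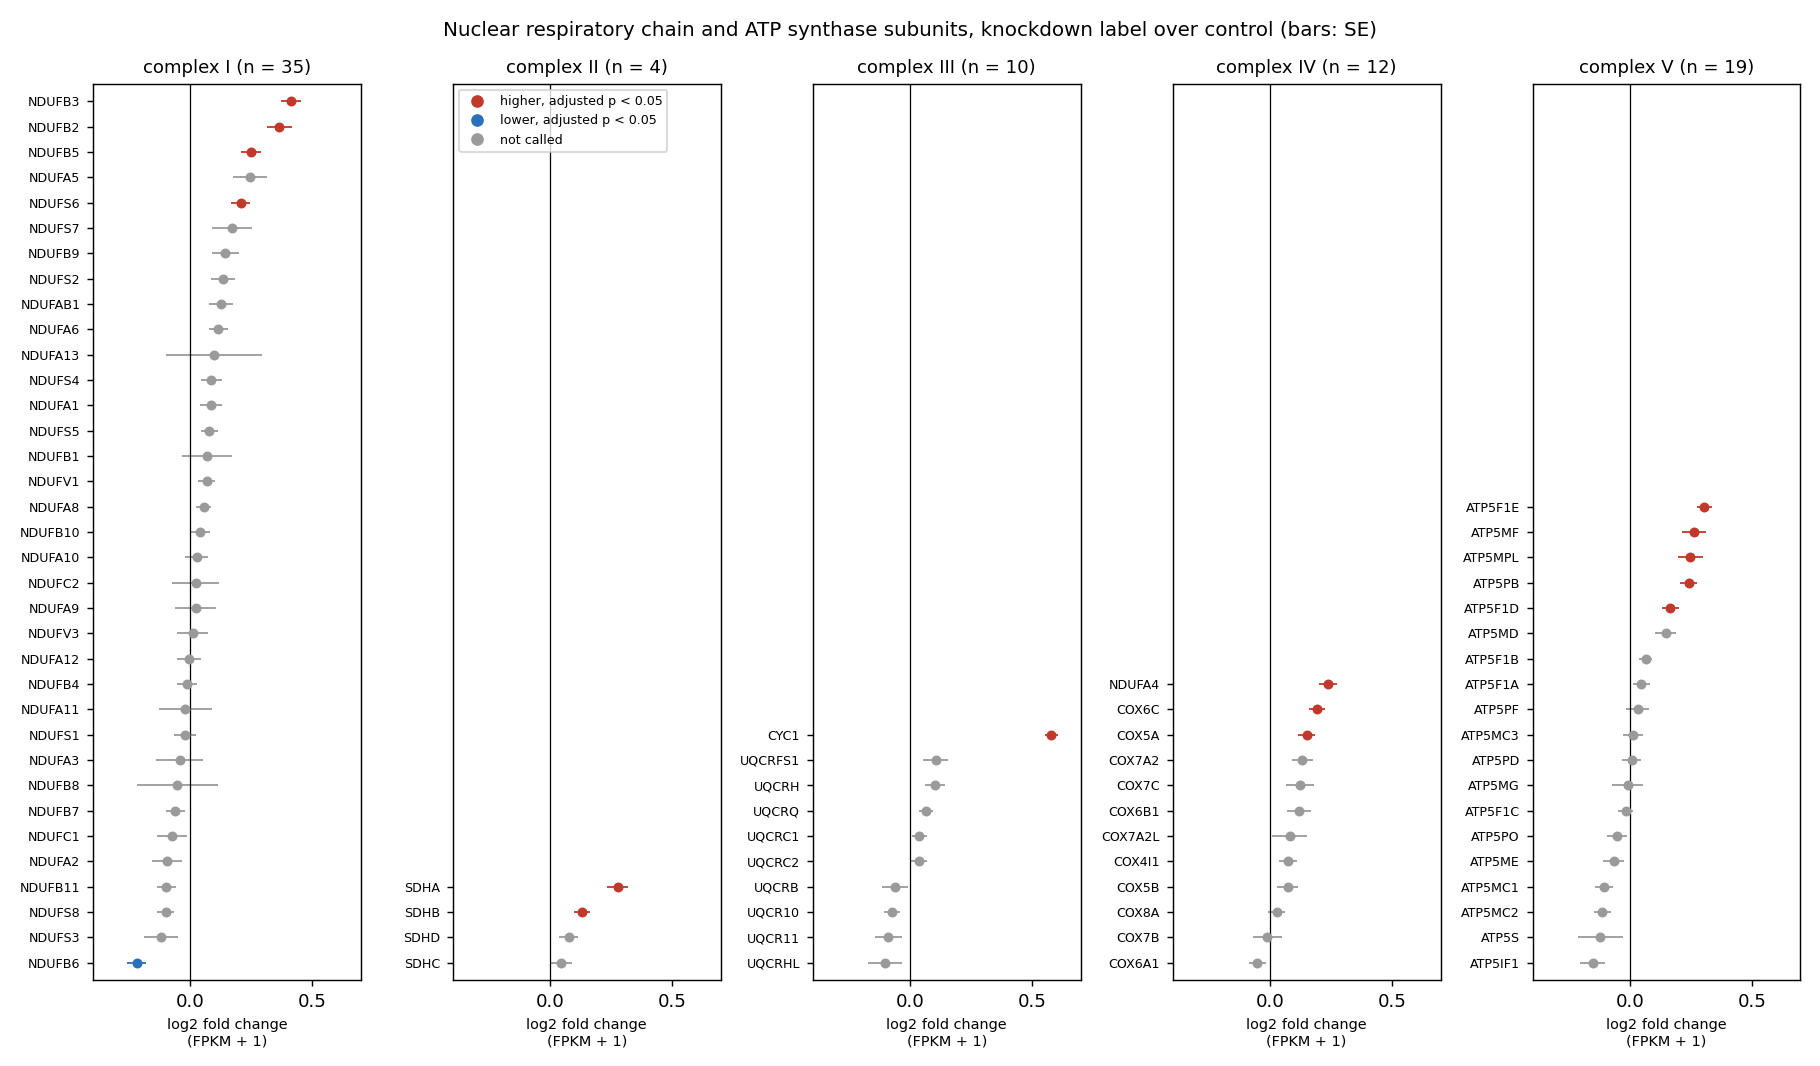
Each row is 1 subunit gene in the panel of its complex, placed on the x axis by its log2 fold change of FPKM + 1 (libraries labelled knockdown over controls, n = 2 each), with bars for the SE, red for called higher, blue for called lower, grey for neither, and the black line at 0. Most points lie near 0, CYC1 of complex III stands highest at 0.58 and NDUFB6 of complex I lowest at -0.22.

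Complex I, the NADH dehydrogenase, had 35 tested nuclear genes with a median of 0.04. Of these, 4 were called higher (11.4%) and 1 lower (2.86%), against 16.8% and 13% of all tested genes. NDUFB3 (ENSG00000119013, chr2:201071433-201085750 on GRCh38), an accessory subunit of the distal membrane arm, was at 23.6 and 25.1 FPKM in the controls and at 32.7 and 32.7 FPKM in the libraries labelled knockdown. The groups did not overlap, and the level was 1.33-fold higher (95% interval 1.23 to 1.43; log2 fold change 0.41, SE 0.04; limma adjusted p = 0.00349). The exons of FAM126B cover 19.8% of the NDUFB3 exon bases, and reads of such overlapping genes cannot be told apart here. NDUFB2, another subunit of that arm, stood at 18.6 and 17.5 FPKM in the controls and at 24.3 and 22.7 FPKM in the libraries labelled knockdown. Both of the latter were higher (1.29-fold, interval 1.17 to 1.41; limma adjusted p = 0.00838). Of the NDUFB2 exon bases, 35.9% are shared with other annotated genes, among them ADCK2 and NDUFB2-AS1. NDUFB5, also of the distal arm, had 10.6 and 10.5 FPKM in the controls against 12.6 and 12.9 FPKM (1.19-fold, interval 1.10 to 1.28; limma adjusted p = 0.0131), but the call was lost in each fit with 1 library left out (limma adjusted p = 0.0544 to 0.0659).

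NDUFB6 (ENSG00000165264, chr9:32552999-32573184), a distal arm subunit as well, was the member called lower. Its levels were 29.7 and 30.5 FPKM in the controls and 25.3 and 26.1 FPKM in the libraries labelled knockdown, without overlap. The fold was 0.858 (interval 0.803 to 0.917; log2 fold change -0.22, SE 0.04; limma adjusted p = 0.0135). It was called with the second library labelled knockdown left out (limma adjusted p = 0.0450) and not with control 1, control 2 or the first library labelled knockdown left out (limma adjusted p = 0.0513, 0.0662 and 0.0702). The distal arm as a whole had 12 tested genes with a median of 0.05, 3 called higher (25%) and 1 lower (8.33%), so its subunits differed in direction. Over all tested genes, 16.8% were called higher and 13% lower.

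NDUFS6, a zinc-binding subunit of the NADH-oxidising N module, was at 42.2 and 40.0 FPKM in the controls and 47.3 and 47.8 FPKM in the libraries labelled knockdown. That 1.15-fold difference (interval 1.08 to 1.24; limma adjusted p = 0.0173) passed without control 1 and not without any other library (limma adjusted p = 0.0666 to 0.0809). It was the only one of 8 tested N module genes to be called, and the module's median was 0.04. None of the 6 tested genes of the Q module, which passes electrons to coenzyme Q, was called, with a median of 0.08. In that module NDUFA5 came nearest to a call, with 4.39 and 3.98 FPKM in the controls and 5.03 and 5.25 FPKM in the libraries labelled knockdown (1.18-fold, interval 1.05 to 1.34; limma adjusted p = 0.0516). The 9 tested genes of the proximal membrane arm were not called either, with a median of 0.03. NDUFB7 had the highest level of the complex, 145 and 140 FPKM in the controls and 133 and 141 FPKM in the libraries labelled knockdown, and these overlapped.

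All 4 subunits of complex II, which is succinate dehydrogenase and has no mitochondrially encoded part, were tested. The catalytic pair SDHA and SDHB was called higher and the membrane anchors SDHC and SDHD were not. That is 50% of only 4 genes, against 16.8% of all tested genes called higher. SDHA (ENSG00000073578, chr5:218241-256700), the flavoprotein that oxidises succinate, had 25.4 and 26 FPKM in the controls and 30.3 and 32.3 FPKM in the libraries labelled knockdown. The fold was 1.21 (interval 1.12 to 1.31; limma adjusted p = 0.0111), and the call was lost without control 1 (limma adjusted p = 0.0579). Genes annotated as SDHA pseudogenes held reads equal to 12.8% of those of SDHA, so its level is uncertain to that extent. SDHB, the iron-sulphur subunit, stood at 34.9 and 34.4 FPKM in the controls and 38.4 and 37.6 FPKM in the libraries labelled knockdown (1.09-fold, interval 1.03 to 1.16; limma adjusted p = 0.0409). With all 4 libraries, that call was lost with no filter on low values (limma adjusted p = 0.0719) and with quantile normalization (0.0947). It was also lost with voom (0.0907) and with a term for the replicate number (0.0596). Leaving out any 1 library ended the SDHB call (limma adjusted p = 0.109 to 0.166).

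SDHC had 10.6 and 11 FPKM in the controls and 10.9 and 11.3 FPKM in the libraries labelled knockdown, which overlapped (1.03-fold, interval 0.950 to 1.12; limma adjusted p = 0.519). SDHD had 22.1 and 22.3 FPKM in the controls and 23.0 and 23.9 FPKM in the libraries labelled knockdown (1.05-fold, interval 0.985 to 1.13; limma adjusted p = 0.196). The intervals of SDHC and SDHD reach the fold of SDHB, and differences between subunits were not tested.

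Complex III had 10 tested nuclear genes with a median of 0.04 and 1 call, CYC1, which was higher (10%, against 16.8% of all tested genes). CYC1 (ENSG00000179091, chr8:144095027-144097525) encodes cytochrome c1, the haem subunit that reduces cytochrome c. It was at 77.9 and 77.6 FPKM in the controls and at 117 and 117 FPKM in the libraries labelled knockdown. The gap between groups was far wider than that within them: 1.49-fold (interval 1.42 to 1.57; log2 fold change 0.58, SE 0.03; limma adjusted p = 0.000904), the largest fold of the 80 members. The summed level of complex III was 532 and 532 FPKM in the controls and 586 and 583 FPKM in the libraries labelled knockdown, and without CYC1 it was 454 and 454 against 470 and 466 FPKM, a ratio of 1.03.

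The other redox subunit, the Rieske iron-sulphur protein UQCRFS1, was not called (1.07-fold; limma adjusted p = 0.178). Neither were the core proteins UQCRC1 and UQCRC2, both 1.03-fold (limma adjusted p = 0.402 and 0.459). The 6 tested small subunits had a median of -0.07, with none called. UQCRH, the hinge protein, had the highest level of the complex, 110 and 104 FPKM in the controls and 117 and 113 FPKM in the libraries labelled knockdown, while its near-identical copy UQCRHL was between 3.68 and 4.27 FPKM in the 4 libraries. Reads of that pair may have been divided between them.

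Complex IV, cytochrome c oxidase, had 12 tested genes of 18, with 3 called higher (25%), none lower and a median of 0.10. All 12 had a mean of at least 5 FPKM, where 25.4% of tested genes were called higher and 18.9% lower. NDUFA4, named for complex I but since placed with complex IV and counted there, had 34.2 and 35.8 FPKM in the controls and 41.9 and 41.0 FPKM in the libraries labelled knockdown. The groups were apart (1.18-fold, interval 1.10 to 1.26; limma adjusted p = 0.0117), although the call was lost without control 1 and without the first library labelled knockdown (limma adjusted p = 0.0543 and 0.0649). COX6C, a small membrane subunit, was at 26.9 and 26.8 FPKM in the controls and at 30.7 and 31.0 FPKM in the libraries labelled knockdown (1.14-fold, interval 1.08 to 1.21; limma adjusted p = 0.0135). COX5A, which sits on the matrix side, was at 90.4 and 91.0 FPKM in the controls and at 98.2 and 103 FPKM in the libraries labelled knockdown (1.11-fold, interval 1.04 to 1.18; limma adjusted p = 0.0340). Neither COX6C (limma adjusted p = 0.0603 to 0.0690) nor COX5A (0.0533 to 0.131) was called with any 1 library left out.

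Several complex IV subunits exist as paralogs used in different tissues, and the form present here was the widespread one in each pair measured. COX4I1 was at 57.2 and 57.5 FPKM in the controls and 59.0 and 61.8 FPKM in the libraries labelled knockdown, whereas COX4I2, the lung form, had 1, 1, 0 and 0 reads. COX6A1 was at 49.6 and 49.7 FPKM in the controls and 46.7 and 49.0 FPKM in the libraries labelled knockdown, and COX6A2, the heart and muscle form, had 0 reads in each library, which allows up to 3 reads. COX6B1 was at 112 and 118 FPKM against 121 and 130 FPKM, and COX6B2, the testis form, had 0, 0, 2 and 3 reads. COX7A2 was at 54 and 50.5 FPKM against 58.1 and 56.6 FPKM, COX7A2L at 14.2 and 15 against 14.5 and 16.6 FPKM, and COX7A1, the muscle form, had 5, 5, 2 and 1 reads. NDUFA4L2, the hypoxia-induced relative of NDUFA4, had 26, 23, 10 and 25 reads, under the filter in all 4 libraries. COX8A had the highest level of complex IV, 183 and 174 FPKM in the controls and 181 and 183 FPKM in the libraries labelled knockdown.

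ATP synthase had 19 tested genes of 21, with 5 called higher (26.3%) and none lower. Of the 19, 18 had a mean of at least 5 FPKM, where 25.4% of tested genes were called higher and 18.9% lower. The median was 0.01 and turned to -0.02 with quantile normalization and to -0.01 with voom. In the F1 part, whose catalytic head makes ATP, ATP5F1E (ENSG00000124172, chr20:59025467-59032382), the epsilon subunit, was at 27.3 and 27.3 FPKM in the controls. It was at 34.2 and 33.8 FPKM in the libraries labelled knockdown. It was 1.24-fold higher (interval 1.17 to 1.31; log2 fold change 0.31, SE 0.03; limma adjusted p = 0.00381), and 23.2% of its exon bases are shared with TUBB1. ATP5F1D, the delta subunit, had 62.5 and 64.6 FPKM against 72.3 and 70.6 FPKM (1.12-fold, interval 1.06 to 1.19; limma adjusted p = 0.0223), a call that was lost with any 1 library left out (0.0534 to 0.104). ATP5F1B, the catalytic beta subunit, had the highest level of all members, 503 and 498 FPKM in the controls and 522 and 526 FPKM in the libraries labelled knockdown (1.05-fold, interval 0.999 to 1.10; limma adjusted p = 0.124).

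In the peripheral stalk, which holds the head still, ATP5PB (ENSG00000116459, chr1:111448864-111462773) was at 52.0 and 50.4 FPKM in the controls and at 61.5 and 59.8 FPKM in the libraries labelled knockdown. The difference, 1.18-fold (interval 1.11 to 1.26; limma adjusted p = 0.00851), missed the threshold without the first library labelled knockdown (limma adjusted p = 0.0510). Among the accessory subunits in the membrane, ATP5MF had 36.8 and 33.8 FPKM in the controls and 42.7 and 42.4 FPKM in the libraries labelled knockdown (1.20-fold, interval 1.10 to 1.31; limma adjusted p = 0.0176). ATP5MPL had 15.2 and 16.2 FPKM against 18.2 and 19.4 FPKM (1.19-fold, interval 1.08 to 1.30; limma adjusted p = 0.0247). The ATP5MF call was lost without either library labelled knockdown (limma adjusted p = 0.0777 and 0.0714), and the ATP5MPL call with any 1 library left out (0.0518 to 0.104).

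The 3 genes for the proton-carrying c subunit, whose mature proteins are the same, had a median of -0.11 and none was called. ATP5MC2 was called lower with protein-coding genes only, quantile normalization or voom (limma adjusted p = 0.0499, 0.0327 and 0.0189), and ATP5MC1 with quantile normalization (0.0444). ATP5MC1 was at 19.8 and 20.3 FPKM against 18.3 and 18.8 FPKM (limma adjusted p = 0.0970), ATP5MC2 at 30.2 and 29.5 FPKM against 27.3 and 27.8 FPKM (0.0661), and ATP5MC3 at 25.6 and 27.0 FPKM against 26.8 and 26.3 FPKM. Both libraries labelled knockdown were thus below both controls for ATP5MC1 and ATP5MC2 and within the range of the controls for ATP5MC3. ATP5IF1, which inhibits the enzyme when it runs in reverse, was at 45.4 and 45.4 FPKM in the controls and 38.9 and 42.7 FPKM in the libraries labelled knockdown (0.899-fold; limma adjusted p = 0.0812).

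**Figure D2:**
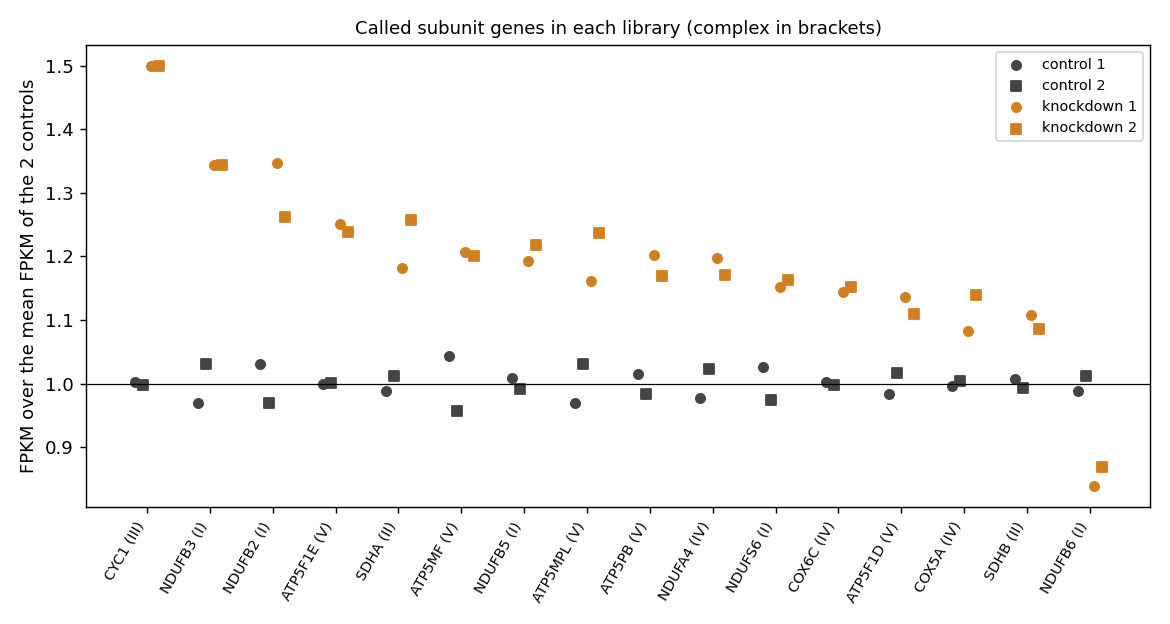
For each of the 16 called members, the points give the FPKM of each of the 4 libraries divided by the mean of the 2 controls, with controls and libraries labelled knockdown in different colours. In each gene the 2 groups are apart, CYC1 lies furthest above 1, and NDUFB6 is the gene with both libraries labelled knockdown below 1.

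The calls were next set beside chromosomal position. Earlier results of these data had shown chromosomal regions in which most genes shifted together, and the bounds used here on 8q and 20q were set after values were seen. Of the 7 tested members in such regions, NDUFS6 and SDHA on 5p, NDUFA5, NDUFB2 and ATP5MF on 7q, CYC1 at the end of 8q24 and ATP5F1E at the end of 20q13, all 7 lay above both controls, 6 were called higher and the median was 0.28. The 859 other tested genes of the shifted regions had a median of 0.24, and 564 of them also lay above both controls. Of the 859, 406 were called higher (47.3%) and 74 lower. The regions include 11p15, whose 90 genes shifted down (median -0.40), and chromosome 13, and neither holds a member. In the 4 regions that hold members, the 549 other tested genes had a median of 0.28, with 281 called higher (51.2%) and 17 lower. Outside the regions, 9 of 73 members were called higher (12.3%) and 1 lower, with a median of 0.04. There, 14.6% of the 11838 other tested genes were called higher and 13.4% lower, with a median of -0.01.

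CYC1 moved about as much as the genes beside it: the 20 nearest tested genes, 10 on each side, had a median log2 fold change of 0.59, and 19 of the 20 were above 0, against 0.58 for CYC1. For SDHA the median of its neighbours was 0.29, for NDUFS6 0.29, for ATP5MF 0.30, for ATP5F1E 0.26, and for NDUFA5 0.25. NDUFB2, at 0.37, was 0.22 above the median of its neighbours, 0.15. NDUFB3 and ATP5PB stood out from their surroundings, with neighbour medians of 0.01 and 0.02 against their own 0.41 and 0.24. NDUFB5 (own value 0.25), ATP5MPL (0.25) and NDUFA4 (0.24) had neighbour medians of 0.01, 0.06 and -0.09, and NDUFB6 (-0.22) had one near 0, at -0.004. Copy number was not measured, and the part of the chromosomal shifts in the members' differences was not tested.

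**Figure D3:**
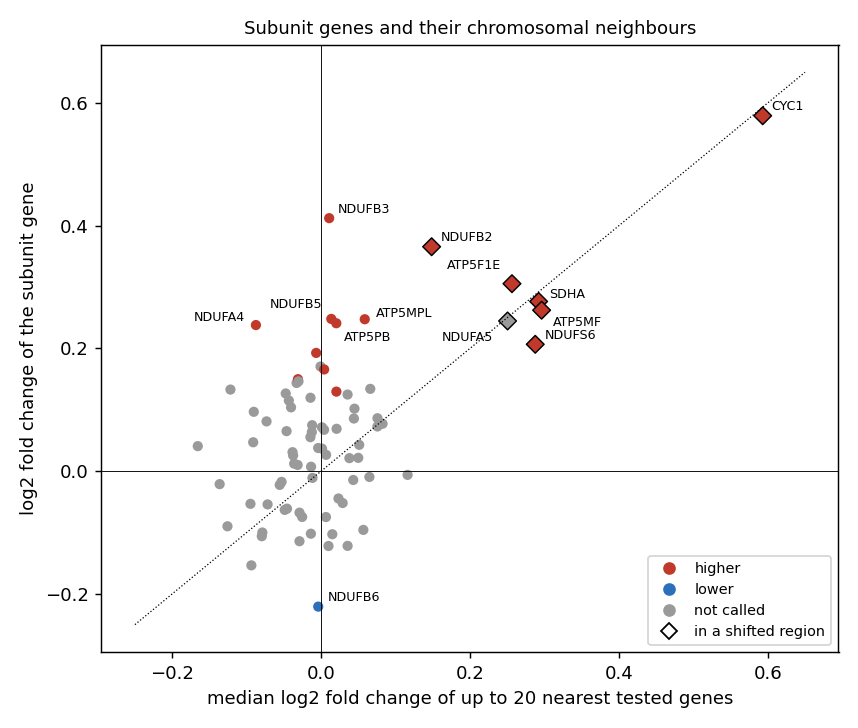
Each point is 1 of the 80 members, with the median log2 fold change of its nearest tested genes (10 on each side where the chromosome allows) on the x axis and its own log2 fold change on the y axis. Diamonds mark the 7 members in shifted regions, of which 6 lie near the dotted line of equal values and NDUFB2 lies above it, and NDUFB3, NDUFB5, ATP5PB, ATP5MPL and NDUFA4 lie above it near 0 on the x axis.

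Of the 13 subunit genes of the mitochondrial genome, 7 were called lower (53.8%, against 13% of all tested genes) and 1 higher, and their median was -0.20. All 13 had a mean of at least 5 FPKM, where 18.9% of tested genes were called lower. The lower calls were in complexes I and IV, while MT-CYB of complex III (0.07), MT-ATP6 (0.07) and MT-ATP8 (0.17) of complex V and MT-ND4L (0.10) of complex I had values above 0. MT-ND1, a core membrane subunit of complex I, was at 1112 and 1149 FPKM in the controls and at 741 and 642 FPKM in the libraries labelled knockdown (0.611-fold; log2 fold change -0.71, SE 0.07; limma adjusted p = 0.00345). MT-CO1, the subunit of complex IV that binds oxygen, was at 4444 and 4127 FPKM against 2912 and 2717 FPKM (0.657-fold; limma adjusted p = 0.00252). MT-CO2 was at 4246 and 4230 FPKM against 3299 and 3132 FPKM (0.759-fold; limma adjusted p = 0.00269). In each of these 3 genes both libraries labelled knockdown were well below both controls.

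MT-ND2, MT-ND3, MT-ND6 and MT-CO3 were the other genes called lower, and MT-ATP8, at 28.8 and 28.8 FPKM against 31.9 and 33.3 FPKM, was called higher. MT-CYB, MT-ND4, MT-ND4L, MT-ND5 and MT-ATP6 were not called. Several mitochondrial genes overlap and the nuclear genome holds copies of some, so reads of single genes are uncertain. The mitochondrial genome held 2.87% and 2.76% of the reads in genes in the controls and 2.35% and 2.19% in the libraries labelled knockdown. With no filter on low values, the calls of MT-CO1 and MT-CO2 were lost (limma adjusted p = 0.132 and 0.265), and with quantile normalization MT-CO2 turned to 0.04 on the log2 scale (0.332). The difference in direction between the 2 genomes was not tested.

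**Figure D4:**
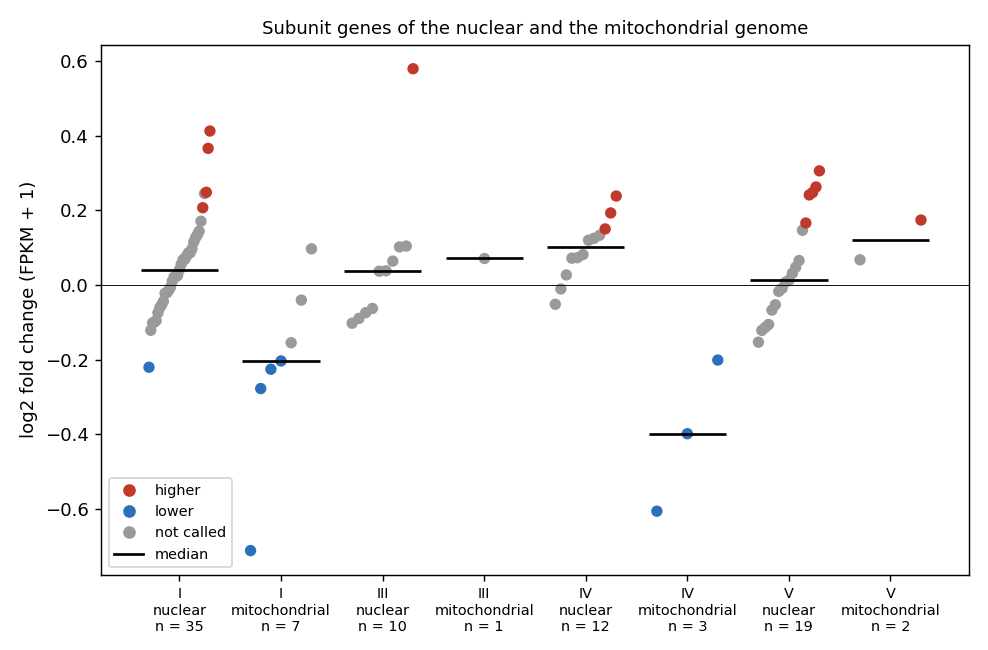
Log2 fold changes of FPKM + 1 (libraries labelled knockdown over controls, n = 2 each) are shown for subunit genes of the nuclear and the mitochondrial genome in complexes I, III, IV and V, with 1 point per gene, red for called higher, blue for called lower, grey for neither, and black lines at the medians. The mitochondrial genes of complexes I and IV have medians of -0.20 and -0.40, below the nuclear medians of 0.04 and 0.10, whereas MT-CYB of complex III, at 0.07, and MT-ATP6 and MT-ATP8 of complex V, at 0.07 and 0.17, lie above the nuclear medians of 0.04 and 0.01.

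Of 50 tested genes listed as assembly factors, 1 was called higher (2%) and 8 lower (16%), against 16.8% and 13% of all tested genes. Assembly factors build the complexes without staying in them. The lists also held LRPPRC, which acts on mRNAs and was 1 of the 8. Of 16 tested factors of complex I, 1 was called higher (NDUFAF8) and 3 lower (among them NDUFAF2 and NDUFAF3), with a median of -0.03. With 1 library left out, NDUFAF8 and NDUFAF2 were called in 1 of 4 fits each and NDUFAF3 in none. None of 4 tested factors of complex II was called. Among 6 of complex III, BCS1L, which inserts the Rieske protein, was called lower, from 12.1 and 11.7 FPKM in the controls to 10.6 and 9.76 FPKM, but not with any 1 library left out (limma adjusted p = 0.0567 to 0.155). Of 21 tested factors of complex IV, none was called higher and 4 lower. LRPPRC, which stabilises mitochondrial mRNAs, fell from 42.8 and 43.2 FPKM to 30.9 and 32.1 FPKM (log2 fold change -0.44, SE 0.04; limma adjusted p = 0.00203) and was called in each fit with 1 library left out. The copper chaperone SCO1 and COA7 were also called lower, though SCO1 in no fit with 1 library left out and COA7 in 1 of 4. None of 3 tested factors of ATP synthase was called.

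Around the chain, the citric acid cycle genes, which supply NADH and succinate, had 6 of 14 called higher (42.9%) and 1 lower (7.14%), with a median of 0.12. All 14 had a mean of at least 5 FPKM, where 25.4% of tested genes were called higher and 18.9% lower. SUCLA2, a subunit of succinyl-CoA synthetase encoded on chromosome 13, rose from 7.90 and 7.48 FPKM to 14.8 and 14.5 FPKM (1.80-fold; limma adjusted p = 0.00116), and DLD, the dehydrogenase subunit shared by several complexes and encoded on 7q, rose from 26.6 and 27.5 FPKM to 42.8 and 41.0 FPKM (1.53-fold; limma adjusted p = 0.00136). FH, which hydrates the product of complex II, fell from 61.0 and 60.4 FPKM to 42.9 and 39.0 FPKM (0.679-fold; limma adjusted p = 0.00270). SUCLA2 and DLD lie in shifted regions, whose other genes had medians of 0.24 on chromosome 13 and 0.26 on 7q.

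Of 7 other tested electron donors to coenzyme Q, 3 were called higher (42.9%) and 1 lower (14.3%). Over all tested genes, 16.8% were called higher and 13% lower. ETFA, of the flavoprotein that carries electrons from fatty acid oxidation, rose from 38.3 and 36.3 FPKM to 45.6 and 45.0 FPKM (limma adjusted p = 0.00830), and ETFDH, which hands them to coenzyme Q, rose from 4.61 and 4.63 FPKM to 6.71 and 7.69 FPKM (limma adjusted p = 0.00744). CHDH, the choline dehydrogenase, fell from 6.94 and 6.93 FPKM to 3.48 and 4.05 FPKM (limma adjusted p = 0.00358). The ATP export and phosphate import list had 2 of 7 called higher (28.6%) and 2 lower (28.6%). VDAC1 and SLC25A3 were called higher, and the adenine nucleotide carriers SLC25A5 and SLC25A6 lower. All 7 had a mean of at least 5 FPKM, where 25.4% of tested genes were called higher and 18.9% lower. SLC25A3, the phosphate carrier, kept its call in 2 of 4 fits with 1 library left out. VDAC1, the outer membrane channel, rose from 94.8 and 96.7 FPKM to 118 and 118 FPKM (limma adjusted p = 0.00302), and SLC25A6 fell from 134 and 133 FPKM to 109 and 115 FPKM (limma adjusted p = 0.00767).

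Of 12 mobile carrier and coenzyme Q synthesis genes, 1 was called higher (8.33%, COQ4) and 2 lower (16.7%, PDSS1 and COQ9). The shares over all tested genes were 16.8% and 13%. With 1 library left out, PDSS1 was called in 2 of 4 fits and COQ4 and COQ9 in none. Of 11 supercomplex and cristae genes, 1 was called higher and 1 lower (9.09% each). HIGD1A was called higher, from 33.2 and 34.2 FPKM to 44.0 and 42.8 FPKM (limma adjusted p = 0.00341). APOOL was called lower, from 6.25 and 5.99 FPKM to 4.30 and 4.32 FPKM (limma adjusted p = 0.00657). Of 13 tested regulators of respiratory gene transcription, 1 was called higher (7.69%) and 2 lower (15.4%). ESRRA was called higher, and the mitochondrial transcription factors TFAM and TFB2M were called lower. TFAM went from 11.7 and 11.1 FPKM to 9.45 and 9.54 FPKM (limma adjusted p = 0.0207). ESRRA and TFAM were called in no fit with 1 library left out (limma adjusted p = 0.0585 to 0.0818 and 0.0507 to 0.0966), and TFB2M in 2 of 4. None of 7 uncoupling and antioxidant genes was called. The list medians ranged from -0.20 for the mitochondrial genome to 0.16 for the other electron donors.

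The 11 members under the filter were not tested. NDUFV2, a core subunit of the N module, came just under it with 0.839, 1.01, 1.00 and 0.957 FPKM (40, 54, 47 and 44 reads), and NDUFA13, just above it, had 0.840, 1.22, 1.5 and 0.871 FPKM. Of the exon bases, 28.4% for NDUFV2 and 21.0% for NDUFA13 lie in other annotated genes. The NDUFV2 pseudogene held reads equal to 48.6% of those of NDUFV2. For NDUFV2 and NDUFA13 all of the exon sharing is with genes on the same strand. Sharing varied among members with high levels. COX8A shared 34.5% (same strand, mean 180 FPKM), NDUFB11 44.9% (opposite strand, mean 57.0 FPKM) and ATP5F1B 0% (mean 512 FPKM). NDUFA7 had 0.684 to 0.805 FPKM, with 33.5% of its exon bases shared with RPS28 and a further gene. Whether the low levels come from the assignment of shared reads was not tested. COX6A2, COX7B2, ATP5MGL and the readthrough gene NDUFC2-KCTD14 had 0 reads in each library, and the readthrough gene ATP5MF-PTCD1 had 1, 2, 1 and 0 reads.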

How the data were processed

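The data were 4 RNA-seq libraries of HT8 cells, 2 per genotype label. Trizol was used to extract RNA and standard Illumina protocols to make libraries, per the labels. HISAT2 2.0.5 and hg18 are named in the submitters' processing notes. FPKM per gene were deposited by the authors, and the sources used here do not give how reads were counted, by strand or not. Overlapping and antisense genes may therefore share reads. All 58735 gene IDs matched GENCODE 29, whose GRCh38 coordinates are used. FPKM times exon length gave whole reads for 100% of values, within 0.01 read, with totals of 17348315, 19479906, 17330674 and 17069628 reads.

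The 12777 genes with a mean of at least 1 FPKM were fitted by limma-trend on log2(FPKM + 1) (limma 3.58.1, R 4.3.3), with group as the only term and 2 residual degrees of freedom. Fold changes on this scale understate those of low genes. Two-sided p-values were adjusted over all tested genes (Benjamini-Hochberg), with calls at an adjusted p under 0.05. The fit was run on simulated counts whose changes were larger than those of all called members but CYC1. That run therefore does not bear on calls of smaller changes. Intervals of 95% come from limma. Floors of 3 reads cover counting error only. Values are given for up to 5 called members of each complex with the smallest p, the member with the highest mean, complex II, paralogs used in different tissues, members nearest the filter, and up to 3 called genes of each of 13 lists; other names and the promoter letters were chosen after values were seen. Members, lists and regions were chosen with earlier results of these data known. Alternatives changed the normalization, filter, pseudocount and libraries used.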

Additional observations from a re-analysis of the deposited data

How the results depend on the processing

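These results rest on 4 libraries and 2 residual degrees of freedom, and members near the filter rest on few reads. Over all tested genes, higher calls numbered 1134 with no filter on low values and 1131 to 1318 with 1 library left out; lower calls numbered 734 with no filter, 2709 with limma-voom on the recovered reads and 753 to 926 with 1 library left out. Members called higher numbered 9 with no filter, 9 outside the shifted regions and 5 to 9 with 1 library left out. Members called lower numbered 2 at a mean of at least 5 FPKM, 3 among protein-coding genes only, 7 with quantile normalization, 4 with voom and 0 to 2 with 1 library left out. The members' median log2 fold change was 0.030 with quantile normalization, 0.028 with voom and 0.037 to 0.067 with 1 library left out. For complex I it was 0.055 at a mean of at least 5 FPKM, 0.020 with voom, 0.024 outside the shifted regions and 0.034 to 0.064 with 1 library left out. For complex II it was 0.063 with quantile normalization, 0.095 scaled to reads outside the mitochondrial genome, 0.082 with voom and 0.075 outside the shifted regions. For complex III it was 0.011 with quantile normalization, 0.014 with voom and 0.020 to 0.054 with 1 library left out. For complex IV it was 0.054 to 0.146 with 1 library left out. For complex V it was 0.0014 with the trend on exon length removed, -0.024 with quantile normalization, -0.012 with voom and -0.0027 to 0.037 with 1 library left out. Single genes changed sign. COX8A was at -0.0066 with quantile normalization and -0.010 to 0.063 with 1 library left out, COX7A2L at -0.011 to 0.173 with 1 library left out, and NDUFA13 at -0.039 to 0.305 with 1 library left out. ATP5MC3 was at -0.00052 with the length trend removed, -0.024 with quantile normalization, -0.012 with voom and -0.024 to 0.048 with 1 library left out. MT-CO2 was at 0.038 with quantile normalization. The cause was not tested. A pseudocount of 0.1 changed no count of called members. Same-numbered libraries did not deviate together (correlation of deviations across genes -0.002), so the replicate numbers do not pair them; with the replicate block, 14 members were called higher and 1 lower.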
